A study of Mus musculus with 6 samples.

Results

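The genes described here are 40 mouse genes of the endoplasmic reticulum (ER) folding and secretory pathway, taken by gene symbol from a table of 18448 genes. All 40 were found in the table, and all 40 passed the filter on low counts. They comprise 8 lumenal chaperones and helpers, 7 disulfide enzymes, 4 J-domain co-chaperones, 3 prolyl isomerases, 8 genes of ER-associated degradation, 4 stress sensors and 6 subunits of the translocon. RNA came from epithelial organoids grown from mouse jejunum of C57BL/6 background. Both groups carried Villin-CreERT2, a tamoxifen-inducible Cre recombinase driven by the villin promoter of gut epithelium, together with floxed alleles of Hnf4a, a nuclear receptor of the gut and liver epithelium. The 4OHT group received 0.5 µM 4-hydroxytamoxifen for 24 h to delete Hnf4a, and the DMSO group received the vehicle. Both groups were then split, given 200 ng/mL recombinant mouse Wnt3A, a ligand that sustains crypt cells, and harvested at day 2. There were 3 libraries in each group. Nothing in the labels ties them to different animals or organoid lines, so the p-values speak for the variation among 6 libraries, part or all of it possibly technical.

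Proteins bound for secretion or for membranes enter the ER through the Sec61 channel, are folded there by chaperones, and receive disulfide bonds and sugars before leaving for the Golgi. Those that fail to fold are passed back to the cytosol and degraded. When unfolded proteins build up, sensors in the ER membrane start the unfolded protein response, which raises the transcription of many of the chaperone genes. The gut epithelium holds goblet and Paneth cells, whose output of mucins and antimicrobial peptides loads this pathway heavily, and IRE1β, encoded by Ern2, is a sensor largely restricted to mucus-producing epithelia.

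One known route of this response runs through the ER stress response element, a CCAAT box and a CCACG box spaced by 9 bases, which in mammals is bound by NF-Y together with ATF6 or XBP1. The promoter of Hspa5, the gene of the chaperone BiP, is shown because it is the textbook case and because BiP is the central chaperone of the set. The sequence is the 250 bases before its start in RefSeq on GRCm38.p6, chr2:34771840-34772089 on the plus strand, written 5′ to 3′ with the element in capitals. The element ends 46 bases before the start.

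Hspa5: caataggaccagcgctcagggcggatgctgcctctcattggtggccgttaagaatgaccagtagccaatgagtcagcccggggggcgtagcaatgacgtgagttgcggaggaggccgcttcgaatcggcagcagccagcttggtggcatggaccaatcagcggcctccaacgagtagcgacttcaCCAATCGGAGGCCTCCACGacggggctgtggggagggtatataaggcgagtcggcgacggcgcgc

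Windows from 250 bases before to 50 bases after a start were given by RefSeq for 33 of the 40 members. Hyou1, Manf, Derl1, Ern2, Atf6, Sec61a1 and Ssr2 had no window in the table used. The letters CCAAT, then any 9 bases, then CCACG, searched on both strands, were found in 39 of 32851 windows of all genes (0.119%). Among the members they were found in 10 of 37 windows, which belonged to 10 of the 33 genes (30.3%), namely Hspa5, Hsp90b1, Calr, Canx, Creld2, Pdia6, Ero1lb, Dnajc3, Syvn1 and Derl3. The same letters were in 0 windows of each other list searched: 33 windows of further ER folding enzymes, 15 of further degradation genes, 20 of further response factors, 14 of translocation, 12 of oligosaccharyltransferase, 27 of ER exit, 26 of cytosolic chaperones and 9 of mitochondrial chaperones. The elements of the other 9 members follow with 20 bases on either side, in the direction of the gene, so that the fixed boxes and the varying spacer can be compared. Capitals mark the element, which reads CGTGG first where it lies on the opposite strand.

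Hsp90b1: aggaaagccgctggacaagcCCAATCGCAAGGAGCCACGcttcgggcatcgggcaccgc
Calr: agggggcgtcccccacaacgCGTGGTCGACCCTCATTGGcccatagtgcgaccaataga
Canx: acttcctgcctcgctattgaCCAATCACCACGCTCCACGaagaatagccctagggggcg
Creld2: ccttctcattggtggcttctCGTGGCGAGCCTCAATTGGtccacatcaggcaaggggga
Pdia6: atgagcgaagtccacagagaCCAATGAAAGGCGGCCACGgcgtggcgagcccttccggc
Ero1lb: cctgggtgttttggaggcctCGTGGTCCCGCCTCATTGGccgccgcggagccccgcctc
Dnajc3: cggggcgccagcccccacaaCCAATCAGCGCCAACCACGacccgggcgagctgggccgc
Syvn1: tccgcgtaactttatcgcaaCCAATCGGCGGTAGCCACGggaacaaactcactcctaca
Derl3: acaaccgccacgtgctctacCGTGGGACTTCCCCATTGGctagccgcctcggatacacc

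On GRCm38.p6 these stretches lie at chr10:86705618-86705676 on the minus strand (Hsp90b1), chr8:84847055-84847113 on the minus strand (Calr) and chr11:50325780-50325838 on the minus strand (Canx). Those on the plus strand lie at chr15:88819500-88819558 (Creld2), chr12:17266471-17266529 (Pdia6), chr13:12565662-12565720 (Ero1lb), chr14:118937807-118937865 (Dnajc3), chr19:6046512-6046570 (Syvn1) and chr10:75893222-75893280 (Derl3). Hsp90b1 held a second copy, closer to its start. A variant of the element, with the letters ATTGG, any base, then CCACG on either strand, was found in 12 windows of all genes (0.0365%) and in 2 members, Herpud1 and Dnajb11. The variant was also in 1 of 12 oligosaccharyltransferase windows. It is shown for Herpud1, a stress-induced gene of ER-associated degradation, at chr8:94386357-94386407 on the plus strand.

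Herpud1: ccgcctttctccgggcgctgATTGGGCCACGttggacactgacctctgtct

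An HNF4-type site, CAAAGTCCA on either strand, was in the window of 1 member, Fkbp2, and in 0.475% of all windows. Outside the members it was in 1 of 27 ER exit windows. The letters TGACGTGG, an ATF6-type site, were in 0 member windows and in 0.676% of all windows. Outside the members they were in 4 of 27 windows of ER exit, 2 of 15 of further degradation genes and 2 of 33 of further folding enzymes. A match of letters is not a measurement of binding.

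The libraries held 31537100 to 40276242 counts, and the 40 genes made up 0.829% to 1.01% of each library's CPM, the count scaled to library size after edgeR's TMM correction. Hnf4a itself had 435.9, 423.7 and 481.7 CPM in the 4OHT libraries, against 839.8, 846.2 and 1021 CPM in the DMSO libraries. Every 4OHT library was thus below every DMSO library, with a log2 fold change of -1.01 (SE 0.10, edgeR adjusted p = 0.0124). Leaving out any 1 library other than DMSO replicate 3 gave edgeR adjusted p-values of 0.0572 to 0.0951 at log2 fold changes of -1.07 to -0.98, and 0.00543 at -0.92 without DMSO replicate 3. Of 14544 tested genes, 0.701% were called higher and 0.206% lower after 4OHT at an edgeR adjusted p under 0.05. Markers of mesenchyme, endothelium and immune cells summed to at most 0.478 CPM in any library, with 2 of 5, 1 of 3 and 1 of 4 markers in the table, whose smallest total is 10 counts. Replicate 3 stood apart in both groups, and values that DMSO replicate 3 moved most are also given without it. Such fits kept 4OHT replicate 3, so genes raised in replicate 3 of both groups move to higher log2 fold changes in them.

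None of the 40 ER genes was called in either direction: 0 were higher and 0 were lower after 4OHT by edgeR at an adjusted p under 0.05, beside a background of 0.908% in either direction. DESeq2 also called 0 members, beside 5.41% of the genes to which it gave an adjusted p. At an unadjusted p under 0.05, edgeR had 3 members higher (Dnajc10, Ern2 and Eif2ak3) and 0 lower, beside 8.65% and 6.35% of all genes. With the replicate number as a block, 2 members, Ern2 and Dnajc10, were called higher and 0 lower. These were 5% of the members, near the block fit's background of 3.99% higher, and 3.0% of all genes were lower. In the authors' deposited table, 0 of the 40 had an adjusted p under 0.05 by edgeR or by DESeq.

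The log2 fold changes were positive for 20 members and negative for 20. Their median was 0.001, beside -0.004 over all tested genes, and 0.083 beside -0.005 without DMSO replicate 3. They ran from -0.24 for Fkbp11 to 0.57 for Ern2. The 95% interval lay within 0.5 of 0 on the log2 scale for 34 of the 40, beside 57.4% of all tested genes. The other 6 were P4hb, Ero1l, Ero1lb, Fkbp11, Derl3 and Ern2. Interval width depends on the counts of a gene, and the members and all tested genes were not matched for level. Summed over the set, the level was 8778.7, 8650.8 and 9566.7 CPM in the 4OHT libraries, against 8285.3, 8366.4 and 10057.6 CPM in the DMSO libraries. The groups overlapped, and the third library was the highest of each group. In RNA of whole organoids, fewer cells of a type and less RNA per cell cannot be told apart.

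**Figure D1:**
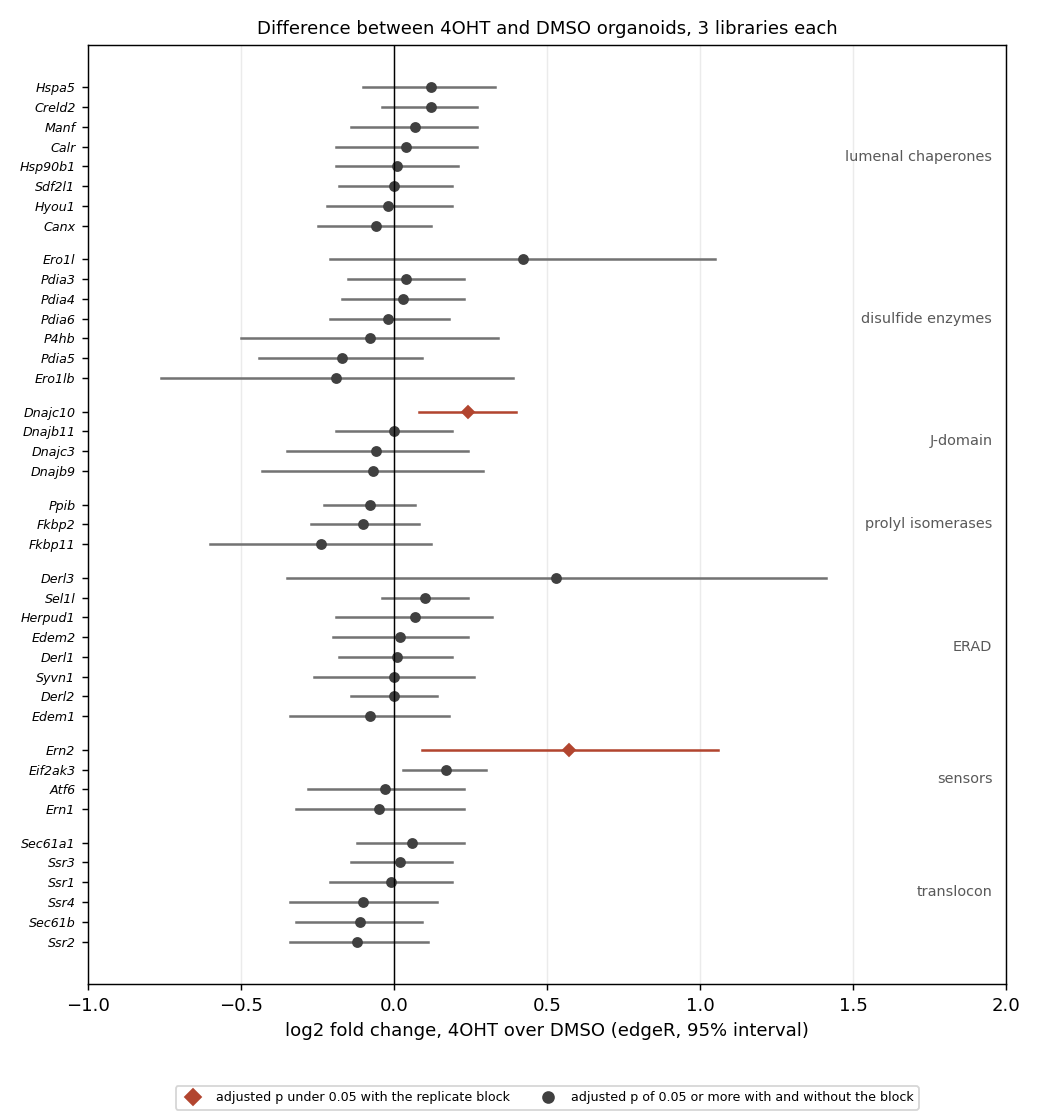
The log2 fold change (4OHT over DMSO, edgeR, 3 libraries each) of the 40 genes is plotted by role, with bars for the 95% interval. Most points lie close to 0, while Ern2 at 0.57 and Dnajc10 at 0.24 (diamonds) are those with an adjusted p under 0.05 when replicates were blocked, at 0.0236 and 0.0319.

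Levels of different genes are compared per kilobase of exon of their coding transcripts. On that scale P4hb, which encodes protein disulfide isomerase, was the most abundant member, at a mean of 398 CPM per kb in 4OHT and 421 CPM per kb in DMSO organoids. Calr followed at 374 and 363, Hsp90b1 at 283 and 281, Pdia3 at 237 and 231, and Hspa5 at 233 and 215 CPM per kb in 4OHT and DMSO organoids. These 5 genes encode lumenal folding proteins, but other lumenal members were near the sensors, such as Dnajb9 at 6.26 and 6.57 CPM per kb in 4OHT and DMSO organoids. Pdia5, at 13.8 and 15.6 CPM per kb, was within the range of the sensors in 4OHT and above it in DMSO organoids. The 4 sensors lay between 6.02 and 16.6 CPM per kb in 4OHT and between 6.22 and 11.2 CPM per kb in DMSO organoids. At the bottom were Ero1lb at 1.18 and 1.34 CPM per kb and Derl3 at 0.33 and 0.228 CPM per kb in 4OHT and DMSO organoids. Neighbours in this order, such as Hsp90b1 and Calr or Pdia3 and Hspa5, were not tested against each other.

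**Figure D2:**
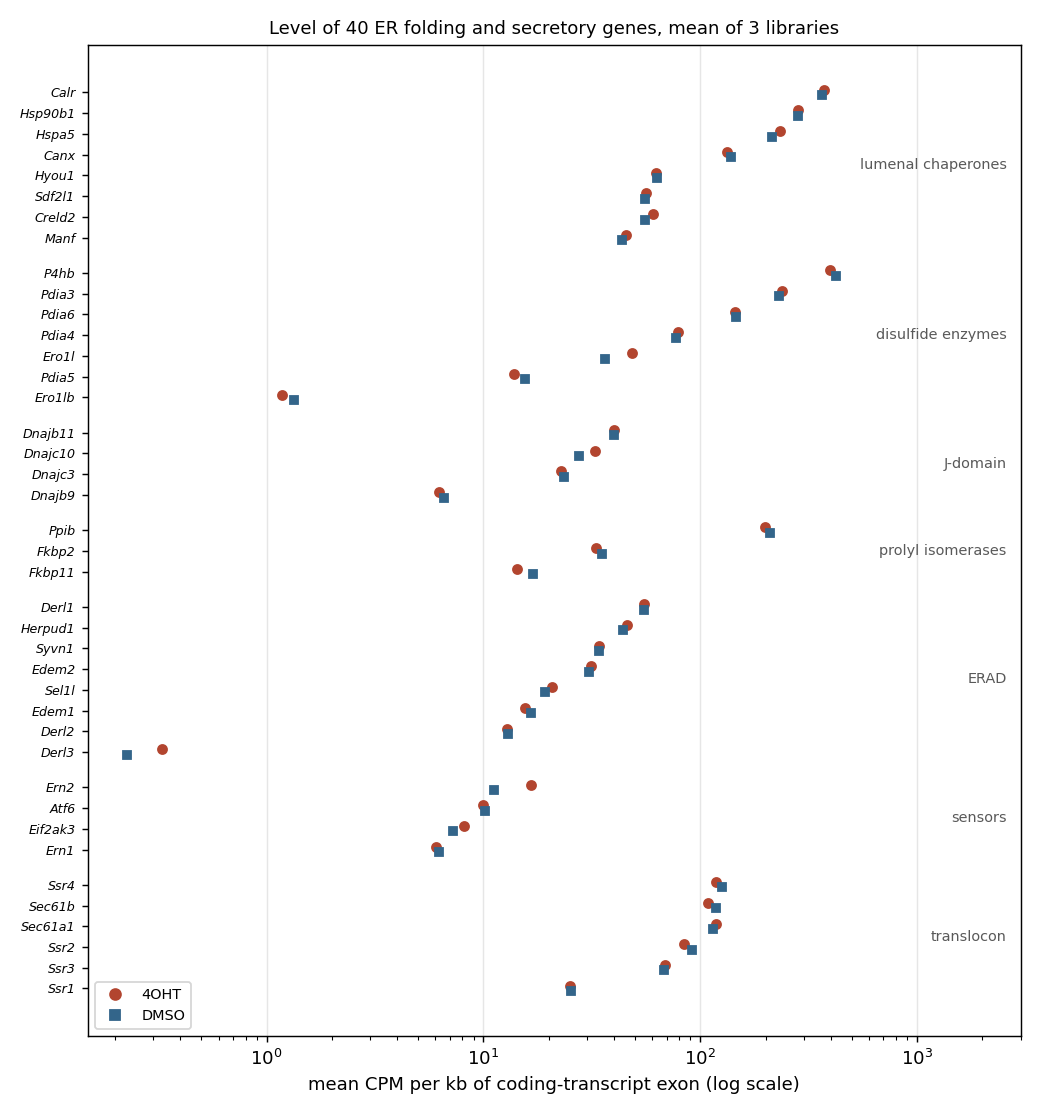
Mean CPM per kb of coding-transcript exon (log axis) is plotted for each gene in 4OHT (circles) and DMSO (squares) organoids, by role and without error bars. Levels span from 0.228 for Derl3 to 421 for P4hb, both in DMSO, and the circle and square of most genes lie close together.

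Among the lumenal chaperones, Hspa5 (BiP, which binds unfolded chains and holds the sensors inactive) had 853, 815.5 and 958 CPM in 4OHT libraries, against 759.2, 782.6 and 880.4 CPM in DMSO libraries. Each 4OHT library was above the DMSO library of its number, but the groups overlapped (log2 fold change 0.12, SE 0.091, edgeR adjusted p = 0.606). Hsp90b1, the ER form of HSP90, had 765.1, 764.2 and 865.1 CPM in 4OHT against 754.2, 766.7 and 859.4 CPM in DMSO libraries. Its values nearly coincided by number (log2 fold change 0.01, SE 0.085). Calr encodes calreticulin, a lectin that retains glycoproteins until they are folded, and had 795, 768.5 and 888.4 CPM in 4OHT against 728.9, 768.1 and 883.5 CPM in DMSO libraries. Creld2, an ER stress-induced gene, had 79.23, 79.65 and 88.74 CPM in 4OHT against 74.35, 74.22 and 79.99 CPM in DMSO libraries. Both overlapped between groups, with edgeR adjusted p-values of 0.881 for Calr and 0.471 for Creld2. The remaining 4 (Hyou1, Canx, Sdf2l1 and Manf) had log2 fold changes from -0.06 to 0.07, all overlapping.

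The disulfide enzymes form and rearrange the bonds between cysteines. P4hb had 1107, 1061 and 1246 CPM in 4OHT against 1026, 1019 and 1569 CPM in DMSO libraries, so that DMSO replicate 3 was the highest of all. Its log2 fold change was -0.08 (SE 0.177), but 0.15 without DMSO replicate 3, and edgeR adjusted p-values were 0.874 and 0.454. Pdia3, which works with calreticulin and calnexin on glycoproteins, had 647.1, 614.1 and 705.3 CPM in 4OHT against 621.1, 610.5 and 686.7 CPM in DMSO libraries, which overlapped. Ero1l, the oxidase that recharges protein disulfide isomerase, had 165, 311.1 and 168 CPM in 4OHT against 138.7, 147.8 and 195.5 CPM in DMSO libraries. 4OHT replicate 2 stood well above the other 5 libraries, and the log2 fold change of 0.42 had a 95% interval of -0.21 to 1.05 (edgeR adjusted p = 0.515). Leaving each library out in turn moved it between 0.05 and 0.58, the lowest being without 4OHT replicate 2. Without replicate 3 of both groups it was 0.72 (edgeR adjusted p = 0.184, and 8.65e-05 with the block). That block fit had 1 residual degree of freedom and called 10.1% of all genes higher. The same-number log2 differences of Ero1l were 0.25 for replicate 1, 1.07 for replicate 2 and, in the opposite direction, -0.22 for replicate 3. Pdia5 had 24.51, 25.4 and 25.25 CPM in 4OHT against 26.29, 25.12 and 33.37 CPM in DMSO libraries, with DMSO replicate 3 high (log2 fold change -0.17, edgeR adjusted p = 0.529, and -0.04 without that library). Pdia4, Pdia6 and Ero1lb, the second oxidase, were at 0.03, -0.02 and -0.19 in log2 fold change, and at 0.11, 0.05 and 0.12 without DMSO replicate 3.

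J-domain proteins deliver substrates to BiP and stimulate its ATPase. Dnajc10, which encodes ERdj5, a reductase that opens disulfides of proteins headed for degradation, had 127.6, 127.8 and 141.8 CPM in 4OHT libraries, against 105.9, 111.7 and 118 CPM in DMSO libraries. It was 1 of 2 members whose groups did not overlap in the higher direction, beside 12.5% of all tested genes, while 0 members were separated in the lower direction, beside 10.1%. The means were 132 ± 8.17 CPM in 4OHT and 112 ± 6.05 CPM in DMSO organoids (SD, n = 3 each), a log2 fold change of 0.24 (SE 0.068, 95% interval 0.08 to 0.40). The edgeR adjusted p was 0.162, and 0.0319 with the replicate block. The 3 same-number pairs differed by 0.27, 0.19 and 0.26 on the log2 scale. Dnajb11, a BiP partner that binds nascent chains, had 127, 117.6 and 143.1 CPM in 4OHT against 126.5, 125.4 and 136 CPM in DMSO libraries. Dnajc3, another BiP partner, had 111.6, 107.4 and 131.1 CPM in 4OHT against 111.5, 109.5 and 143.3 CPM in DMSO libraries. Both overlapped between groups, at log2 fold changes of -0.00 and -0.06, and Dnajb9, a repressor of IRE1, was at -0.07.

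Prolyl isomerases speed the turning of proline bonds during folding. Ppib, or cyclophilin B, had 170.1, 178.5 and 181 CPM in 4OHT against 175.8, 185.9 and 198 CPM in DMSO libraries. Fkbp2 had 54.26, 52.4 and 55.97 CPM in 4OHT against 54.47, 56.07 and 63.65 CPM in DMSO libraries. Fkbp11, typical of secretory cells, had 9.305, 10.31 and 11.93 CPM in 4OHT against 10.64, 11.87 and 14.75 CPM in DMSO libraries. In each the 4OHT library was below the DMSO library of its number but the groups overlapped, with log2 fold changes of -0.08, -0.10 and -0.24 and edgeR adjusted p-values of 0.613, 0.589 and 0.520. Without DMSO replicate 3 the log2 fold changes were -0.04 for Ppib, -0.03 for Fkbp2 and -0.10 for Fkbp11. The same-number log2 differences of Fkbp11 were -0.18, -0.19 and -0.29.

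ER-associated degradation removes what cannot be folded. Derl1, a channel component, had 176.5, 168.8 and 179.2 CPM in 4OHT against 162.6, 165.9 and 193.1 CPM in DMSO libraries. Herpud1 had 85.3, 82.86 and 99.97 CPM in 4OHT against 80.1, 78.6 and 97.63 CPM in DMSO libraries. Sel1l, the partner of the ubiquitin ligase HRD1, had 130.4, 127.4 and 131.8 CPM in 4OHT against 117.7, 116.7 and 129.1 CPM in DMSO libraries. All 3 overlapped between groups, at log2 fold changes of 0.01, 0.07 and 0.10. Derl3, a derlin induced by ER stress, had few reads, with 19, 12 and 17 counts in 4OHT against 6, 14 and 11 counts in DMSO libraries. Its log2 fold change of 0.53 had a 95% interval from -0.35 to 1.41 (edgeR adjusted p = 0.556). Syvn1, the ligase itself, was at 0.00, and Edem1, Edem2 and Derl2 ran from -0.08 to 0.02, all overlapping.

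Of the 4 stress sensors, Ern2 had the largest difference. It had 46.21, 41.58 and 57.17 CPM in 4OHT libraries, against 25.87, 28.63 and 43.02 CPM in DMSO libraries. DMSO replicate 3 lay above 4OHT replicate 2, so the groups overlapped, but within each number the 4OHT library was higher. The means were 48.3 ± 8.01 CPM in 4OHT and 32.5 ± 9.2 CPM in DMSO organoids (SD, n = 3 each), and the log2 fold change was 0.57 (SE 0.207, 95% interval 0.09 to 1.06). The edgeR adjusted p was 0.261 and did not pass. With the replicate block it was 0.0236, at a log2 fold change of 0.59 and pair differences of 0.82, 0.53 and 0.41. Without DMSO replicate 3 the edgeR adjusted p was 0.0380 at a log2 fold change of 0.82, where 1 member was called higher beside 1.71% of all genes. Without replicate 3 of both groups it was 0.0113 at 0.68, where again 1 member was called higher beside 2.59% of all genes. In the authors' deposited table the adjusted p of Ern2 was 0.062 by edgeR and 0.41 by DESeq.

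The 3 broadly expressed sensors had log2 fold changes from -0.05 to 0.17. Ern1, which encodes IRE1α, had 51.42, 45.77 and 50.07 CPM in 4OHT against 47.75, 44.64 and 59.75 CPM in DMSO libraries. Atf6, whose product is cut in the Golgi to release a transcription factor, had 71.61, 67.88 and 77.62 CPM in 4OHT against 66.56, 68.83 and 85.87 CPM in DMSO libraries. Both overlapped, at log2 fold changes of -0.05 and -0.03, with DMSO replicate 3 the highest of the 6 libraries, and were at 0.08 and 0.09 without it. Eif2ak3 encodes PERK, the kinase that slows translation, and had 39.31, 37.85 and 40.28 CPM in 4OHT against 35.55, 34.27 and 34.8 CPM in DMSO libraries. Its groups did not overlap, but the difference was small (log2 fold change 0.17, SE 0.057, edgeR adjusted p = 0.237, and 0.106 with the block).

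The translocon subunits form the Sec61 channel and the associated translocon-associated protein complex. Sec61a1, the pore, had 381.9, 368.1 and 376.5 CPM in 4OHT against 349.1, 339 and 395.8 CPM in DMSO libraries. Sec61b, a small subunit of the channel, had 72.95, 74.74 and 85.37 CPM in 4OHT against 82.15, 78.41 and 91.81 CPM in DMSO libraries. The 2 subunits thus had opposite signs, 0.06 and -0.11 in log2 fold change, and each overlapped between groups. Ssr4 had 89.19, 89.6 and 104.4 CPM in 4OHT against 94.3, 94.52 and 114.7 CPM in DMSO libraries. Ssr2 had 158.2, 149.6 and 162.7 CPM in 4OHT against 159.3, 156.1 and 194.3 CPM in DMSO libraries. With Ssr1 and Ssr3, all 6 had edgeR adjusted p-values of 0.593 or more. Leaving out DMSO replicate 3 gave log2 fold changes of 0.12 for Sec61a1, -0.05 for Sec61b, and -0.01 for Ssr2 and Ssr4.

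**Figure D3:**
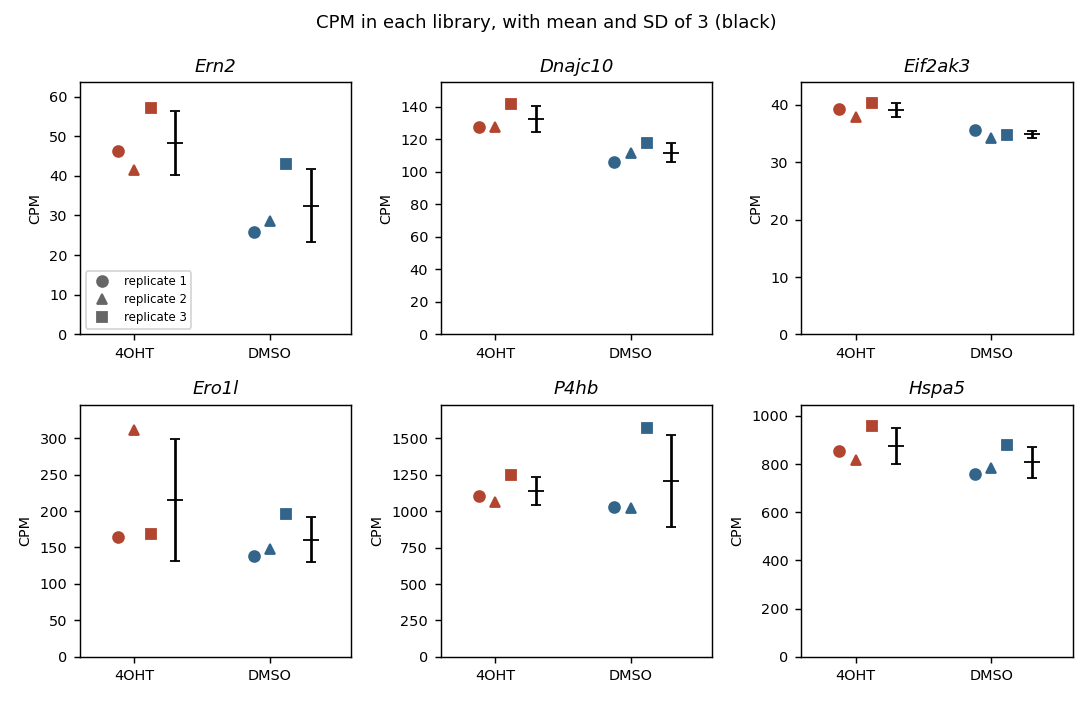
CPM in each library is plotted for 6 ER genes, 4OHT left of DMSO, with symbols for replicate numbers and black bars for the mean and SD of 3 libraries. Dnajc10 and Eif2ak3 separate the groups, Ern2 is higher in 4OHT within each number, and 4OHT replicate 2 of Ero1l (311.1 CPM) and DMSO replicate 3 of P4hb (1569 CPM) stand apart.

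Ern2 was then set beside the goblet cells in which its product is known. The 8 goblet markers summed to 4680, 3640 and 6160 CPM in 4OHT libraries, against 2290, 2250 and 4230 CPM in DMSO libraries. As with Ern2, DMSO replicate 3 lay above 4OHT replicate 2, and each 4OHT library exceeded the DMSO library of its number. All 8 had positive log2 fold changes (median 0.751, range 0.11 to 1.65). EdgeR called 0 higher without the block and 6 with it, beside 0.701% and 3.99% of all genes. DESeq2 called 2 higher, beside 3.4% of all tested genes. Muc2, the main gel-forming mucin of the gut, had 148.6, 130.2 and 214.4 CPM in 4OHT against 68.76, 44.04 and 158.7 CPM in DMSO libraries. Agr2, a goblet marker that is also an ER disulfide isomerase needed for mucin, had 318.4, 288.9 and 485.9 CPM in 4OHT against 151, 155.4 and 316.9 CPM in DMSO libraries. The part of goblet markers in the result for Ern2 was not tested. The 8 enteroendocrine markers had the same order, at 301, 230 and 322 CPM in 4OHT against 230, 207 and 294 CPM in DMSO libraries, with a median log2 fold change of 0.241 and 1 called with the block. The 9 Paneth markers summed to 2000, 2090 and 2160 CPM in 4OHT against 2080, 2350 and 2500 CPM in DMSO libraries, and the 8 enterocyte markers to 3000, 2370 and 3730 CPM against 3620, 3250 and 6160 CPM. Without the block, edgeR called 1 Paneth and 0 enterocyte markers lower, beside 0.206% of all genes. With the block it called 2 of each lower, beside 3.0%, and 0 were called higher in either fit. Lyz1, a Paneth marker named after its value was seen, was at -0.78 (edgeR adjusted p = 0.0318 without the block).

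**Figure D4:**
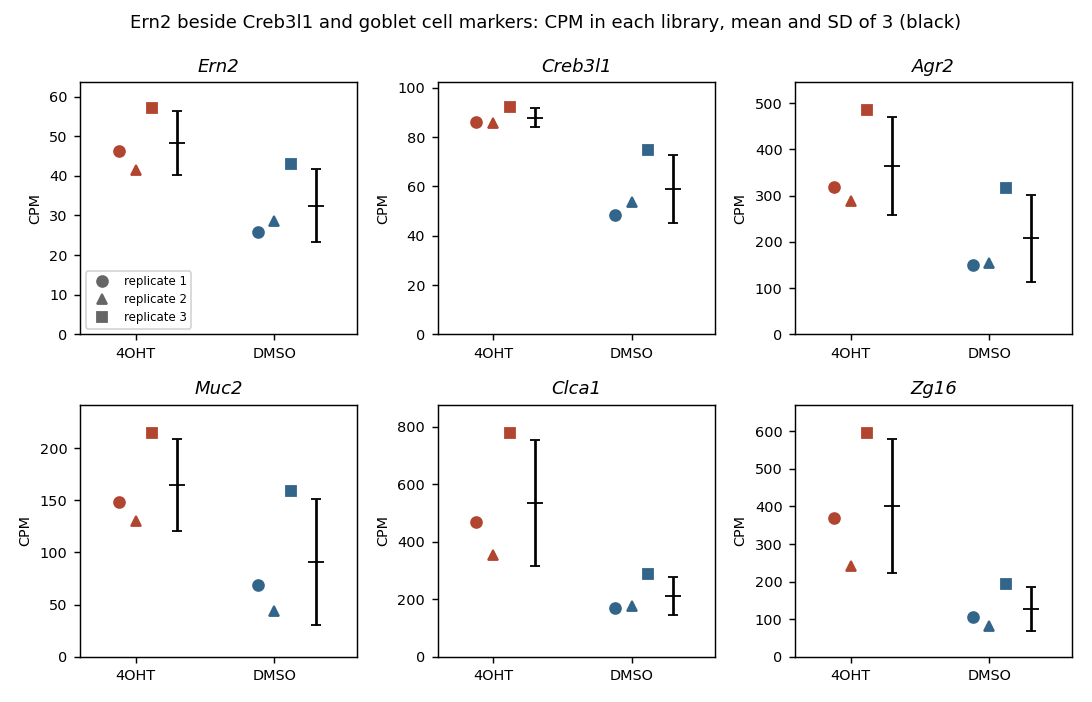
CPM in each library is plotted for Ern2, Creb3l1 and 4 goblet markers, 4OHT left of DMSO, with symbols for replicate numbers and black bars for the mean and SD of 3 libraries. In all 6 panels the 4OHT library is above the DMSO library of the same number, and replicate 3 is the highest of its group. The 4 markers were chosen after their values were seen. Spink4, a goblet marker not plotted, was lower in 4OHT replicate 3 (390.2 CPM) than in DMSO replicate 3 (418.7 CPM).

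Downstream of the sensors, Xbp1, the transcription factor spliced by IRE1, had 141.4, 136.3 and 170.9 CPM in 4OHT against 149.4, 150.7 and 215.5 CPM in DMSO libraries, and its groups overlapped (log2 fold change -0.20, edgeR adjusted p = 0.616). Without DMSO replicate 3, the highest library, the log2 fold change of Xbp1 was -0.01 (edgeR adjusted p = 0.973). Its same-number log2 differences were -0.08, -0.14 and -0.33. Counts per gene do not show its splicing. Atf4, translated when PERK is active, was at -0.04 (edgeR adjusted p = 0.827), and Ddit3, its target CHOP, was at 0.17 (edgeR adjusted p = 0.733). Creb3l1, an ER-bound transcription factor of secretory cells, had 85.98, 85.5 and 92.24 CPM in 4OHT against 48.53, 53.7 and 74.72 CPM in DMSO libraries. Its groups did not overlap, and the log2 fold change was 0.58 (SE 0.153). The edgeR adjusted p was 0.145, but 0.0300 with the block and 0.00543 without DMSO replicate 3, and the DESeq2 adjusted p was 0.0172. Ppp1r15a, which encodes GADD34, a phosphatase subunit that ends PERK signalling, was at 0.35 (edgeR adjusted p = 0.177). Of the 19 response factors outside the set, 0 passed in either direction without the block. With it 1, Creb3l1, was higher, beside 3.99% of all genes.

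Neighbouring steps of the pathway gave 0 calls in each list without the block. The block fit called 3.99% of all genes higher and 3.0% lower, the background for each list below. Among 29 tested folding enzymes outside the set, the block called 2 higher and 0 lower. Qsox1, a sulfhydryl oxidase of the Golgi and secreted fluids, had 264.8, 232 and 241.6 CPM in 4OHT against 202.6, 187.1 and 172.1 CPM in DMSO libraries. These did not overlap, with a log2 fold change of 0.39 (SE 0.082, edgeR adjusted p = 0.0841), 0.0180 with the block and 0.00471 by DESeq2. The other was Agr2, at an edgeR adjusted p of 0.0115 with the block and 0.314 without it, named after its value was seen. Erp29, a folding factor of the lumen, was at 0.15 (edgeR adjusted p = 0.231). None of 20 further degradation genes passed with or without the block: Ubxn4, which recruits the p97 ATPase, was at 0.13 and Rnf5, a ubiquitin ligase, at -0.17 (-0.08 without DMSO replicate 3).

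Of 11 oligosaccharyltransferase genes, which attach N-glycans, the block called 1 higher, Tusc3, at 38.83, 37.2 and 31.72 CPM in 4OHT against 29.4, 27.3 and 17.8 CPM in DMSO libraries. Its log2 fold change was 0.53, and the edgeR adjusted p was 0.248 without the block and 0.0319 with it. Leaving out DMSO replicate 3 put Tusc3 at 0.33. Tmem258 was at -0.16, and at -0.07 without that library. Of 18 genes of signal recognition, translocation and signal cleavage, 0 passed in either fit. Srp72, of the signal recognition particle, was at 0.12, and Tram2, at 2.44 to 5.50 CPM over all libraries, at -0.62. Of 25 genes of ER exit and retrieval, the block called 0 higher and 2 lower, Sec23a and Preb of the COPII coat machinery, both named after their values were seen. Their log2 fold changes were -0.26 and -0.23, and edgeR adjusted p-values with the block were 0.0319 and 0.0422. Without DMSO replicate 3 and without the block, the log2 fold changes were -0.06 for Sec23a and -0.14 for Preb (edgeR adjusted p = 0.876 and 0.481). That fit kept 4OHT replicate 3, which was also raised for both genes. Same-number log2 differences were -0.21, -0.23 and -0.32 for Sec23a, and -0.26, -0.16 and -0.26 for Preb. Kdelr3, a receptor that returns chaperones to the ER, was at 0.60 (edgeR adjusted p = 0.263, and 0.0353 without DMSO replicate 3), and Sec13, of the COPII coat, at -0.22 (edgeR adjusted p = 0.346, and -0.11 without DMSO replicate 3). Median log2 fold changes were -0.102 for the exit genes and 0.081 for the further folding enzymes, beside -0.004 for all tested genes. For the exit genes, replicate 3 exceeded the mean of replicates 1 and 2 by a median log2 value of 0.29 in DMSO and 0.12 in 4OHT. Most exit genes had higher log2 fold changes without DMSO replicate 3, so their negative median depends on that library. That fit kept 4OHT replicate 3, in which most exit genes were also raised.

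Chaperones of other compartments gave 0 calls in either fit. Of the 23 tested cytosolic chaperones, 22 had a positive log2 fold change, with a median of 0.058, beside 7149 of all 14544 tested genes. Hspa1b, a heat shock gene, was at 0.57 (edgeR adjusted p = 0.211) and Dnajb6 at 0.13. Several signs depended on DMSO replicate 3. Without it Hsp90aa1 was at -0.04 and Hsph1 at -0.06, while Hspa1b was at 0.46 and Dnajb6 at 0.07. All 9 mitochondrial chaperones had a negative one, with a median of -0.075; Trap1 was at -0.18 (edgeR adjusted p = 0.171) and Dnaja3 at -0.11. Hspa1b has a near-identical copy, Hspa1a, and how reads were shared between them is not given in the sources used here.

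Across both groups, the ER genes tended to be highest in replicate 3. In 36 of the 40, replicate 3 was above the mean of replicates 1 and 2 on the log2 scale in both groups, beside 33.3% of all tested genes. The median excess was 0.14 in 4OHT and 0.23 in DMSO organoids, and 0.00 for all tested genes in each group. Scaling by library totals alone left 34 of 40, beside 26.7% of all genes, with medians of 0.11 in 4OHT and 0.17 in DMSO. The 4 exceptions were Ero1l, Edem2 and Derl3, at -0.43, -0.02 and -0.01 in 4OHT, and Eif2ak3, at -0.00 in DMSO. The excess was largest in DMSO for Ero1lb (0.76), Ern2 (0.65) and P4hb (0.62).

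The ER exit genes shared this, with 22 of 25 higher in replicate 3 of both groups, while the cytosolic chaperones had 3 of 23 and the mitochondrial ones 2 of 9. The goblet and enteroendocrine markers were higher in replicate 3 of both groups for 8 of 8 each, the enterocyte markers for 7 of 8, and the stem and proliferation markers for 0 of 5 each. Their part in the result was not tested. Among the members, those whose promoter window held the CCAAT and CCACG element had a median excess of 0.18 in 4OHT and 0.22 in DMSO, and 9 of 10 were higher in both groups. The other members with a window had medians of 0.09 in 4OHT and 0.24 in DMSO, and 20 of 23 were higher in both. The 2 sets had median log2 fold changes between 4OHT and DMSO of 0.00 each, and no test was made between them.

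**Figure D5:**
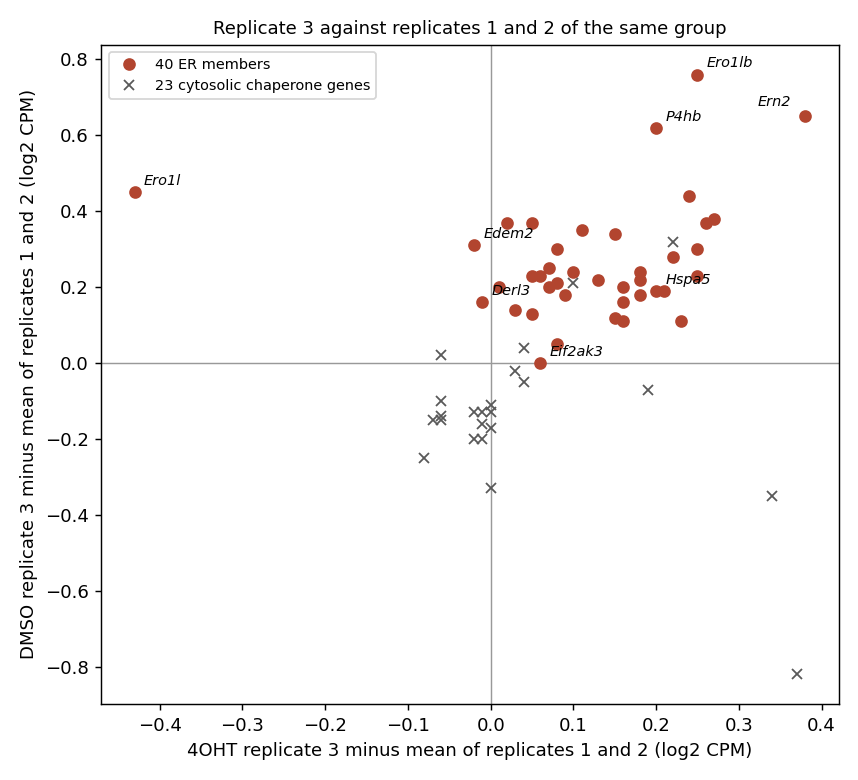
The difference of replicate 3 from the mean of replicates 1 and 2 (log2 CPM) is plotted for 4OHT (horizontal) and DMSO (vertical) libraries, for the 40 ER genes (circles) and 23 cytosolic chaperone genes (crosses). Of the circles, 36 lie above 0 on both axes, as do 3 of the crosses.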

How the data were processed

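Poly(A) RNA libraries were made with a directional kit from 250 ng RNA, per the labels' protocols. STAR 2.4.0f1, bcl2fastq 1.8.4 and GRCm38 were named, per the submitters' processing notes. The read counter and its strand setting are not given in the sources used here, so reads of overlapping or antisense genes may be mixed. The authors deposited raw counts per gene, per the file headers, and these were used for every test. The 6 normalised per-sample columns were not used. The deposited log2 fold change and the deposited adjusted p-values (edgeR, DESeq) were set beside the results.

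Of 18448 gene identifiers, 18351 matched GENCODE M21, which gave exon lengths; 8 symbols were repeated. Analysis used R 4.3.3, edgeR 4.0.16 (TMM scaling, filterByExpr, which removed 3904 genes, and the quasi-likelihood test with Benjamini-Hochberg adjustment over 14544 genes) and DESeq2 1.42.0. Log2 values per library used a pseudocount of 0.5 CPM. Intervals are 95% confidence intervals for the log2 fold change between groups, from the standard error of the edgeR fit without the block.

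Deviations from group means correlated at 0.303, 0.332 and 0.427 between libraries of the same number and at -0.372 to 0.075 between others, so numbers were taken to pair the libraries. Deviations cancel within a group, so positive same-number values bring negative ones among the other numbers by construction. The pairing comes from these data, not from the labels.

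Members and lists were chosen with earlier results of these data known. Named with values were members called with or without the block, the 2 most abundant per kb and the 2 with the smallest p of each role, the 4 sensors, Hnf4a, Xbp1, Atf4, Ddit3, and the 2 smallest p of each other list. Alternatives were DESeq2, other scalings, filters (none, or 10 CPM in 3 libraries), the block and leaving out libraries. Scaling of the replicate 3 excess was varied after seeing the data.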

Additional observations from a re-analysis of the deposited data

How the results depend on the processing

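The members called higher numbered 0 without the block and under DESeq2, both other scalings and both filters, 0 to 1 when each library was left out in turn, 1 without replicate 3 of both groups, 2 with the replicate block and 4 with both changes (Dnajc10, Ern2, Ero1l and Sel1l, with 1 residual degree of freedom), beside 10.1% of all genes called higher in that last fit. Members called lower were 0 in every setting run. Over all genes, 102 were called higher and 30 lower; the pairs of counts were 38 and 18 with at least 10 CPM in 3 libraries, 580 and 437 with the replicate block, 494 and 262 by DESeq2, 379 and 222 without replicate 3 of both groups, and 1482 and 1196 with the block and without replicate 3 of both. Leaving out 1 library gave 3 to 253 higher and 1 to 87 lower, the most without DMSO replicate 3. The cause was not tested. Hnf4a ran from -1.07 to -0.92 in log2 fold change when a library was left out.

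Small differences changed sign. Leaving out 1 library gave log2 fold changes from -0.02 to 0.12 for Calr, -0.05 to 0.06 for Hsp90b1, -0.19 to 0.15 for P4hb, -0.02 to 0.08 for Pdia3, -0.08 to 0.06 for Dnajb11, -0.15 to 0.07 for Dnajc3, -0.04 to 0.08 for Derl1, -0.02 to 0.17 for Herpud1, -0.10 to 0.09 for Atf6 and -0.13 to 0.08 for Ern1. Without replicate 3 of both groups, with or without the block, P4hb was at 0.08, Atf6 at 0.04 and Ern1 at 0.07. Among the genes named by rule, the replicate block alone changed the calls of Ern2, Dnajc10, Qsox1, Creb3l1 and Tusc3 and of no other. The median of the members stayed within its spread over pairs (SD 0.088). Without DMSO replicate 3, Xbp1 was at -0.01, Pdia5 at -0.04, Fkbp11 at -0.10 and Ero1lb at 0.12. Derl3 had under 20 counts in every library, and its interval is the widest of the members.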
